A study of Mus musculus with 6 samples.

Results

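The 10 genes described here build or regulate the contractile actin filaments of the cell: Acta2, Actb, Actg1, Actg2, Actn1, Tagln, Cnn1, Myl9, Tpm1 and Vcl. They were chosen by name, with earlier results of these data known, and all 10 were found among the 48897 genes of the deposited count table. All 10 passed the filter on low counts, which kept 18563 genes. Messenger RNA was sequenced from C57BL/6 mouse embryonic fibroblasts at passages 5 to 7, connective tissue cells grown from embryos. There were 3 groups of 2 libraries. Control cells received PBS, TC cells received TNF-α and cycloheximide, and TCZ cells received TNF-α, cycloheximide and z-VAD-fmk. Cycloheximide stops protein synthesis, TNF-α is a cytokine of inflammation, and z-VAD-fmk inhibits caspases, the proteases of apoptosis. The series is titled as a study of apoptosis and necroptosis. Cycloheximide was given in both treated groups and no group received TNF-α, cycloheximide or z-VAD-fmk alone, so the effects of the single agents cannot be told apart. Doses and times were not given in the sources used here. Nor is it stated whether cultures were separate within a group, so p-values measure only the spread between these libraries.

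Actin monomers polymerise into filaments, and in contractile bundles myosin pulls on filaments that tropomyosin stabilises, α-actinin crosslinks and vinculin helps anchor to the membrane at focal adhesions. Mammals have 6 actin genes. Actb and Actg1 encode the cytoplasmic actins present in nearly every cell, while Acta2 and Actg2 encode smooth muscle actins; Acta2 is also the classical marker of activated fibroblasts. Transcription of many of these genes depends on serum response factor (SRF), which binds the CArG box, a short element with an A/T core. Its coactivators of the MRTF family are held by free actin monomers and released when monomers are used up in filaments.

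The libraries held between 24922627 and 52909926 counts, of which the 10 genes took 2.01% to 2.29%. Control library 2 and TCZ library 2 were the shallowest and stood apart in the small structural RNA Rnu1a1. It had 165 and 3 counts in the control libraries, 242 and 274 in TC, and 231 and 1 in TCZ. In Rn7s1, another such RNA, these libraries were not alike. TCZ library 2 held only 4 counts of it, whereas control library 2 held 1338. Elsewhere Rn7s1 ranged from 4916 (control library 1) to 6106 (TC library 2), not scaled to depth. Where a call of the 10 genes changed when control library 2 and TCZ library 2 were both left out, that value is given. Such a fit has no replicate libraries of control or TCZ, so only the size of the change is given. For the other gene lists only some of the shifts are given. The 9 fibroblast markers had a summed level, carried by Col1a1, Col1a2, Vim and Fn1, of 7705 to 7751 RPKM (reads per kilobase of gene, scaled to library depth) in control, 6510 to 6588 with TC and 6726 to 6954 under TCZ. The 9 pericyte and smooth muscle lineage markers, of which Myh11, Lmod1 and Des are also contractile genes, summed to 295.6 to 295.9 RPKM in control, 143 to 145 with TC and 142 to 145 under TCZ. The 12 striated muscle markers summed to 121 to 122 RPKM in control, 77.4 to 81.0 with TC and 93.4 to 96.4 under TCZ, with Myod1, Myog, Myl1, Myh3 and Myh6 under 0.1 RPKM in every library. Epithelial markers (6 genes) summed to 13.2 to 14.3 RPKM in control, 51.9 to 56.7 with TC and 9.08 to 11.2 under TCZ, endothelial markers (5 genes) to 2.5 to 3.07, 25.1 to 26.4 and 10.55 to 10.99, and macrophage markers (6 genes) to 10.1 to 10.2, 7.01 to 8.69 and 13.3 to 13.8. Acta1 carried most of the striated sum, at 114.9 and 115.1 RPKM in the control libraries, and Krt19 most of the epithelial sum. The endothelial sum in TC was nearly all Kdr (25.82 and 24.65 RPKM), while Tek was lower there than in control. No marker of any list was at 0 in all libraries. RPKM follow library totals alone, so differences between groups in RPKM can depart from those on the scale of the tests below. In TCZ the median log2 fold change of the 9 fibroblast markers was 0.11 on the scale of the tests and -0.09 on library totals alone. The part of these differences in the values of the 10 genes was not tested. In bulk RNA, fewer cells of a type and less RNA per cell cannot be told apart.

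Per unit of gene length, the actins were among the most abundant transcripts of these fibroblasts. Actb, cytoplasmic β-actin, ranked 3 to 4 among all genes by RPKM across the 6 libraries, Acta2 ranked 5 to 8 and Actg1, cytoplasmic γ-actin, 12 to 30. Actb stood at 3099 ± 16.7 RPKM in control, 2601 ± 118 with TC and 3001 ± 70.1 under TCZ (SD, n = 2 libraries, as for all SDs here). Acta2 stood at 2013 ± 23.4, 2121.5 ± 39.2 and 2115 ± 56.7 RPKM, and Actg1 at 1138 ± 217, 1449 ± 27.7 and 1320.0 ± 304. In every group Actb was first, Acta2 second and Actg1 the third of the 10, with no overlap between neighbours. The other smooth muscle actin, Actg2, was far lower, at 294 ± 0.632 RPKM in control, 275 ± 1.32 with TC and 309.8 ± 1.72 under TCZ.

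Among the remaining genes, Actn1 and Vcl each stood 2 places higher in this order in TC than in control. Actn1 (α-actinin-1, a filament crosslinker) stood at 408 ± 1.56 RPKM in control, below Tpm1 (tropomyosin 1) at 459.5 ± 1.54, and overlapped Myl9 (a regulatory myosin light chain) at 409.8 ± 11.9. In TC, Actn1 reached 744 ± 0.0137 RPKM and stood above Tpm1 at 503.0 ± 1.19 and Myl9 at 369.6 ± 10.8. In TCZ, Tpm1 at 562 ± 6.56 RPKM was again above Actn1 at 519.8 ± 6.08 and Myl9 at 462 ± 14.0. The lowest 3 genes in control were Tagln (transgelin, an actin-binding protein) at 211 ± 2.40 RPKM, Cnn1 (calponin 1, which binds filaments and inhibits myosin) at 182 ± 0.741, and Vcl (vinculin) at 177 ± 1.72. In TC, Tagln at 303 ± 29.5 and Vcl at 279.5 ± 4.45 RPKM overlapped, and Cnn1 was lowest at 162 ± 3.16. In TCZ the values were 296 ± 11.8 RPKM for Tagln, 213.5 ± 2.48 for Vcl and 159 ± 2.00 for Cnn1.

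The mix of the 4 actins was described as each gene's share of their summed RPKM. Actb made up 46.1% and 48.7% in the control libraries, 39.5% and 41.2% in TC and 43.3% and 45.8% under TCZ. The groups did not overlap: TC was lowest in Actb share, control highest, and TCZ lay between them. The share of Acta2 was 30.8% ± 0.693 in control, 32.9% ± 1.16 with TC and 31.4% ± 1.16 under TCZ. Actg2 held 4.50% ± 0.163, 4.26% ± 0.051 and 4.60% ± 0.319. The share of Actg1 was 19.3% and 15.4% in control, 22.4% and 22.5% with TC and 21.8% and 17.2% under TCZ; the lower library was the library 2 that stood apart in both cases. With 2 libraries a group no exact test of these shares can pass 0.05, and none was made.

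**Figure D1:**
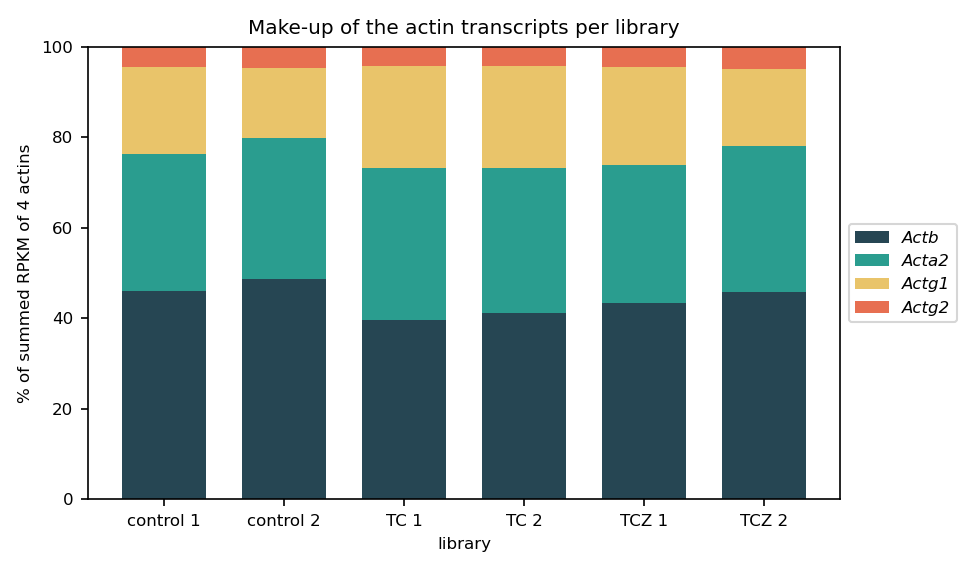
Share of each actin gene (Actb, Acta2, Actg1, Actg2) in the summed RPKM of the 4 genes, in percent, for each of the 6 libraries. Actb is the largest segment throughout, at 39.5% to 48.7%, and Actg1 is smallest in control library 2 and TCZ library 2.

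Ratios to β-actin also describe the composition. Actn1 stood at 0.132 and 0.132 of Actb RPKM in the control libraries, 0.296 and 0.277 in TC and 0.169 and 0.178 under TCZ. The ratio of Acta2 to Actb was 0.657 and 0.642 in control, 0.854 and 0.78 with TC and 0.706 and 0.703 under TCZ. For Tpm1 to Actb it was 0.149 and 0.148, 0.2 and 0.187, and 0.186 and 0.189. All 3 ratios were higher in both TC libraries than in either control library, and all 3 were also above control in TCZ. Actn1 to Vcl, both of which act at focal adhesions, was 2.29 and 2.33 in control, 2.69 and 2.63 with TC and 2.43 and 2.44 under TCZ.

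The promoters were searched for the CArG box because SRF is a known regulator of many contractile genes. Windows from 250 bases before to 50 bases after the RefSeq transcription start (assembly GRCm38.p6) were matched for 7 of the 10 genes: Acta2, Actg1, Actn1, Cnn1, Myl9, Tpm1 and Vcl. The motif was the CArG box of 10 bases, which is CC, then 6 bases A or T, then GG, and is its own reverse pattern, so that both strands are covered. An exact box was found in 3 of the 7 windows (Actg1, Myl9, Vcl) and in 535 of 32851 promoters of the table (1.63%). With at most 1 G or C in the core it was found in 4 of 7, now with Acta2, and in 9.98% of all promoters. No match was found in the windows of Actn1, Cnn1 or Tpm1, which says only that these letters are not in those windows. The matched stretches are shown 5′ to 3′ on the strand of the gene, with the match in capitals:
Acta2, chr19:34255438-34255467, minus strand, 84 bases before the start, 1 core base G or C: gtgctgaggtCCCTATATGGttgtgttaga
Acta2, chr19:34255388-34255417, minus strand, 34 bases before the start, 1 core base G or C: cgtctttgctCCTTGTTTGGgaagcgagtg
Actg1, chr11:120348566-120348595, minus strand, 90 bases before the start, exact: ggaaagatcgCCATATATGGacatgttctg
Myl9, chr2:156775293-156775322, plus strand, 161 bases before the start, exact: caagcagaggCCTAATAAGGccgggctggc
Myl9, chr2:156775355-156775384, plus strand, 99 bases before the start, 1 core base G or C: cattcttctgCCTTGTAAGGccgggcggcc
Vcl, chr14:20929161-20929190, plus strand, 227 bases before the start, exact: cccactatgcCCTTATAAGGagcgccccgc
The Acta2 stretches lie upstream of the RefSeq start but within a GENCODE exon of the gene, and the others lie outside the annotated gene. Distances count to the first matched base. Of the genes with an exact box, Actg1 and Vcl passed as higher than control in both treated groups with edgeR. With DESeq2 Actg1 did not pass (adjusted p = 0.132 in TC and 0.194 in TCZ). Myl9 was higher in TCZ and did not pass in TC with edgeR (on library totals alone it was lower there, at -0.15, adjusted p = 0.00489). The part of the boxes in these values was not tested.

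Reads from near-identical sequences limit what can be said of some genes. Of the 50-base words in Actg1 transcripts, 37.4% also occur in other genes, chiefly the pseudogene Gm12715, against 9.12% for Actb, 6.79% for Actn1, 0.33% for Acta2 and 0% for Actg2, Cnn1, Myl9 and Tpm1. For Tagln the share was 58.4% (55.4% with Gm48529 and 2.98% with Pcsk7) and for Vcl 25.1% (Ap3m1). Tagln overlaps Pcsk7 on the opposite strand over 2476 bases, and since the strand setting of the counting is not stated, reads of that stretch cannot be assigned with certainty. An antisense row that overlaps Tagln held 15 and 10 counts in the control libraries, 46 and 42 in TC and 34 and 20 under TCZ. An unnamed transcript on the same strand within Actn1 held 1 and 8, 70 and 93, and 27 and 12 counts, beside far higher counts of Actn1. The part of these neighbours in the calls of Tagln, Vcl and Actn1 was not tested. Pcsk7 itself held 1914 and 1107 counts in control, 3215 and 3115 with TC and 2142 and 1162 under TCZ.

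For Actg1 the copies could be counted. Reads assigned to 10 γ-actin pseudogene rows came to 1.57% and 5.03% of Actg1 reads in the control libraries, 1.52% and 1.48% in TC and 1.37% and 5.11% under TCZ. The high values were again control library 2 and TCZ library 2, in which Actg1 itself was low (1711 and 2225 CPM, the usual library-scaled count, here scaled by TMM, a trimmed mean of ratios between libraries). Their part in the Actg1 values was not tested. Reads at 8 β-actin pseudogene rows stayed at or under 0.013% of Actb reads.

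**Figure D2:**
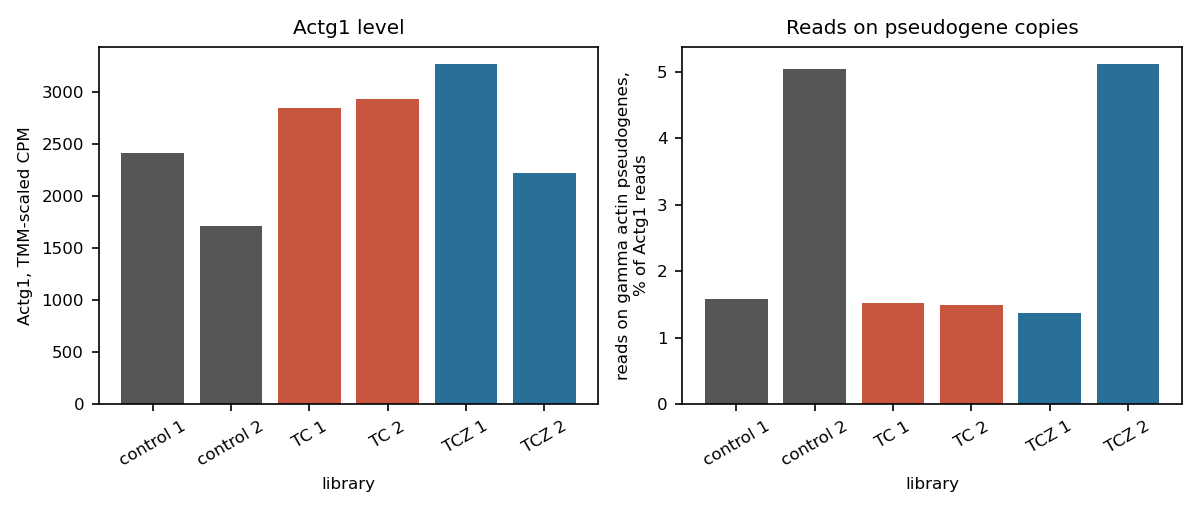
Actg1 level (TMM-scaled CPM) and γ-actin pseudogene reads (percent of Actg1 reads) in each of the 6 libraries. Control library 2 and TCZ library 2 combine the lowest Actg1 levels, 1711 and 2225, with the highest pseudogene shares, 5.03% and 5.11%.

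Changes between groups were tested on counts with edgeR's quasi-likelihood test, with p-values adjusted over all 18563 genes (threshold 0.05), and levels are given as TMM-scaled CPM, which compare a gene between libraries but not genes with each other. In TC against control, the crosslinker Actn1 rose most, with a fold of 2.015, followed by vinculin (1.746) and transgelin (1.586), and γ-actin, Tpm1 and Acta2 rose less. β-actin, Actg2, Myl9 and Cnn1 did not pass. So 6 of the 10 genes were higher and 0 lower. Across all genes tested, 60.7% passed, 31.5% higher and 29.1% lower. The 6 of 10 that passed is therefore close to the share of all genes, and only the split of directions is uneven. The median log2 fold change of the 10 was 0.25 (all genes 0.02), while their median absolute change of 0.25 was below that of all genes, 0.69.

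Beside the count of 0 lower by edgeR, 0 passed as lower at an unadjusted p under 0.05, 0 with DESeq2 and 0 with limma-voom. The libraries of TC and control did not overlap for 7 of the 10 genes, against 79.6% of all genes. These were the 6 that passed and Actb, whose TC libraries were lower.

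**Figure D3:**
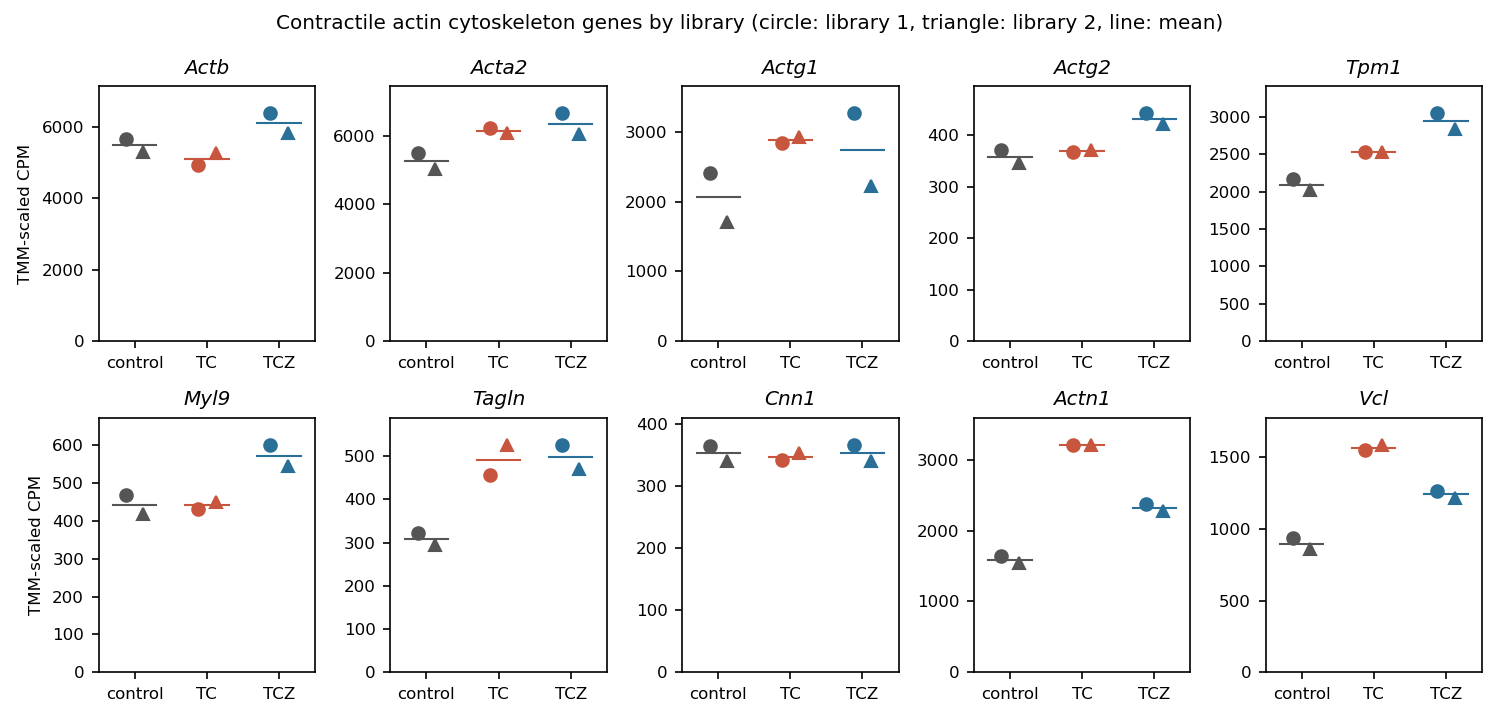
TMM-scaled CPM of the 10 genes in each library (circle: library 1; triangle: library 2; line: group mean), 1 panel per gene with axes from 0. Actn1 and Vcl are highest in TC, Myl9 and Actg2 are highest in TCZ, and the Cnn1 libraries of the 3 groups overlap.

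The adhesion and crosslinking genes had the largest changes of the 10 in TC. Actn1 (chr12:80167542-80260485, mm10) stood at 1645 and 1536 CPM in the control libraries, 3202 and 3209 in TC and 2369 and 2276.5 under TCZ. The 3 groups were fully separate, with TC highest. Its log2 fold change in TC was 1.01 ± 0.07 (SE; adjusted p = 2.81e-11), a fold of 2.015. Vcl (chr14:20929378-21033676) had the same order, at 937.5 and 859 CPM in control, 1549 and 1588 with TC and 1268 and 1219 under TCZ. Vinculin rose by 0.80 ± 0.07 in TC (adjusted p = 1.70e-09), a fold of 1.746.

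Among the filament regulators, transgelin rose most. Tagln (chr9:45929628-45936058) was at 323 and 296 CPM in control, 456.5 and 525 with TC and 526 and 470.3 under TCZ. Both treated groups were above control and overlapped each other. Its log2 fold change in TC was 0.67 ± 0.08 (adjusted p = 2.96e-07). Tpm1 (chr9:67022590-67049401) was at 2169 and 2023.5 CPM in control, 2538 and 2536 with TC and 3051 and 2837 under TCZ, so the 3 groups formed a series without overlap. In TC it rose by 0.28 ± 0.07 (adjusted p = 0.00183), and without TC library 1 it was as large, 0.28 ± 0.13, but no longer passed (adjusted p = 0.0603).

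Cnn1 and Myl9 did not pass in TC. Cnn1 (chr9:22099221-22109221) was at 365 and 341 CPM in control, 342.5 and 353 with TC and 367 and 341 under TCZ, with all groups overlapping. Its log2 fold change in TC was -0.02 ± 0.07 (adjusted p = 0.798). Myl9 (chr2:156775413-156781657) was at 467 and 417 CPM in control, 431 and 450.1 with TC and 600.0 and 543 under TCZ. Its TC libraries lay between the control libraries, and its TCZ libraries were above all others. In TC the log2 fold change of Myl9 was -0.005 ± 0.08 (adjusted p = 0.959).

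The smooth muscle actins differed in what could be called. Acta2 (chr19:34240336-34255585) was at 5513 and 5036 CPM in control, 6218 and 6072.5 with TC and 6661.5 and 6062 under TCZ. Both treated groups were above control and overlapped each other. Acta2 rose by 0.22 ± 0.07 on the log2 scale in TC (adjusted p = 0.0124), a call that was lost without control library 2 (0.15 ± 0.06, adjusted p = 0.0615), without TC library 1 (0.20 ± 0.13, 0.193) and without TC library 2 (0.24 ± 0.13, 0.104). Actg2 (chr6:83512909-83536251) was at 371 and 345 CPM in control, 368 and 371 with TC and 443 and 422 under TCZ. Its TC and control libraries overlapped, with a log2 fold change of 0.04 ± 0.07 (adjusted p = 0.602), and its TCZ libraries were higher than all others.

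The cytoplasmic actins differed in TC, where Actg1 passed as higher and Actb did not pass. Actg1 (chr11:120345687-120348495) was at 2418 and 1711 CPM in control, 2850.0 and 2935 with TC and 3271 and 2225 under TCZ. The gap between the control libraries was wider than that from control library 1 to TC. Actg1 rose by 0.49 ± 0.13 in TC (adjusted p = 0.00332), but by 0.25 without control library 2, where it did not pass (adjusted p = 0.152). Actb (chr5:142903115-142906754) was at 5683 and 5318 CPM in control, 4935 and 5276 with TC and 6390.3 and 5844 under TCZ, the only gene of the 10 with both TC libraries below both control libraries.

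The log2 fold change of Actb in TC was -0.11 ± 0.07 (adjusted p = 0.208). With control library 2 and TCZ library 2 both left out it was -0.16, and Actg1 had 0.25. That fit had no replicate libraries of control. Scaling to library totals alone moved the median of all genes from 0.02 to -0.11, and on that scale 6 of the 10 genes were higher and 4 lower, the latter being Actb, Actg2, Cnn1 and Myl9.

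In TCZ against control, 8 of the 10 genes rose, among them Tpm1, Myl9 and Tagln, both smooth muscle actins and both adhesion genes. Transgelin changed most here, followed by Actn1, Tpm1 and Vcl. Of all genes, 60.1% passed in this comparison, 31.5% higher and 28.6% lower, so more of the 10 were higher than of all genes. None of the 10 passed as lower by edgeR, by DESeq2, by limma-voom or at an unadjusted p under 0.05 (0 each). The libraries did not overlap for 8 of 10 genes, all higher, against 77.9% of all genes; Actg1 and Cnn1 overlapped. The median log2 fold change was 0.39 (all genes 0.05) and the median absolute change 0.39 (all genes 0.67). This comparison and that of TC share the control libraries, so the values of the 2 are given side by side and not as independent evidence.

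**Figure D4:**
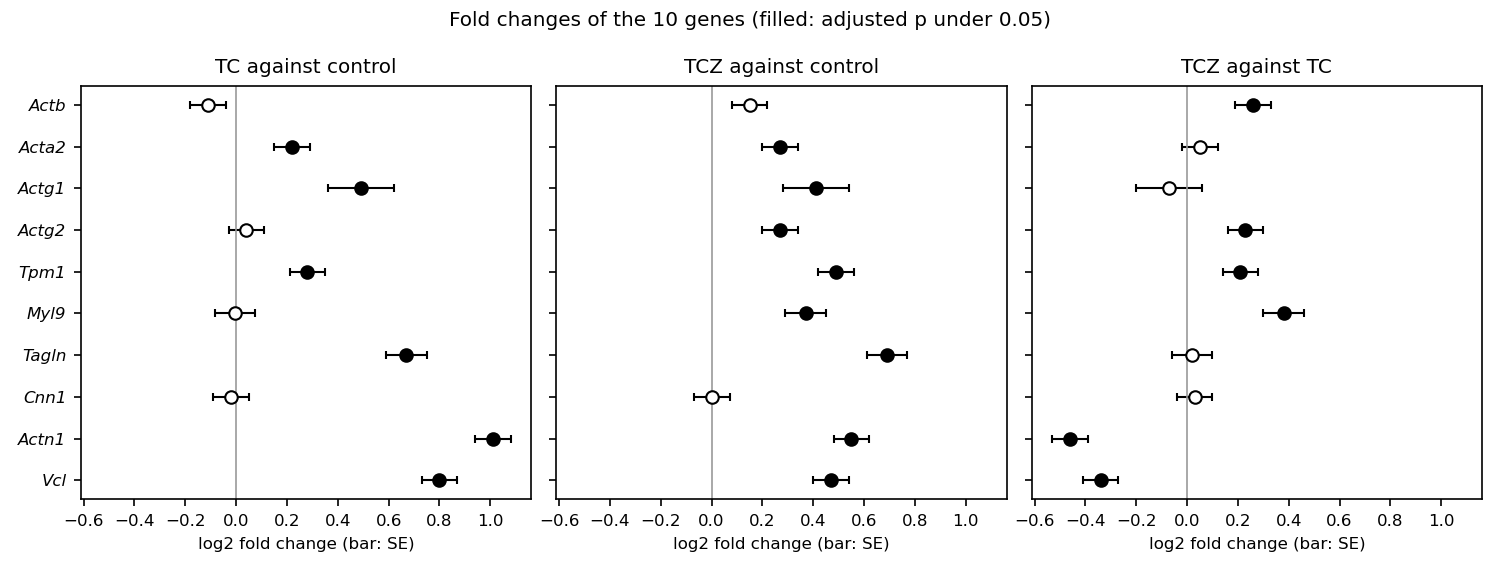
Log2 fold change with its SE for each of the 10 genes for TC and for TCZ relative to control, and for TCZ relative to TC (edgeR; filled points have an adjusted p under 0.05). Actn1 and Vcl are highest in TC (1.01 and 0.80) and lower in TCZ (0.55 and 0.47), while Tagln is near 0.7 in both.

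Tagln rose by 0.69 ± 0.08 in TCZ (adjusted p = 2.00e-07), a fold of 1.61 beside 1.586 in TC. Actn1 rose by 0.55 ± 0.07 (adjusted p = 5.26e-07), a fold of 1.46, and Vcl by 0.47 ± 0.07 (adjusted p = 5.82e-06), a fold of 1.385. Tpm1 rose by 0.49 ± 0.07 (adjusted p = 3.15e-06), a fold of 1.405 beside 1.21 in TC. Myl9, the light chain whose phosphorylation activates smooth and non-muscle myosin, rose by 0.37 ± 0.08 (adjusted p = 0.000239).

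Both smooth muscle actins rose by 0.27 ± 0.07 in TCZ, Acta2 with an adjusted p of 0.00293 and Actg2 with 0.00209. Acta2 did not pass without TCZ library 1 (0.19 ± 0.12, adjusted p = 0.181), and Actg2 did not pass when scaled to library totals alone (0.112). Actg1 rose by 0.41 ± 0.13 (adjusted p = 0.0109), but by 0.17 without control library 2 (adjusted p = 0.343) and by 0.10 without TCZ library 1 (0.5). With both libraries 2 left out its change was 0.43.

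Actb and Cnn1 did not pass in TCZ. For Actb the log2 fold change was 0.15 ± 0.07 (adjusted p = 0.0737), with both TCZ libraries above both control libraries. With both libraries 2 left out it was 0.17, in a fit without replicate libraries of either group. Cnn1 had 0.002 ± 0.07 (adjusted p = 0.987). On library totals alone, where the median of all genes was -0.15, 6 of the 10 genes were higher and Cnn1 was lower, at -0.20.

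TCZ against TC asks what differed when z-VAD-fmk was added. The 2 adhesion genes were lower in TCZ than in TC, and 4 filament genes were higher: Myl9, Actb, Actg2 and Tpm1. Passing genes were 28.2% higher and 27.9% lower of all tested, 56.1% in sum, so the 6 of 10 is again near the background. The libraries did not overlap for the same 6 genes, against 78.5% of all genes. The median log2 difference was 0.04 (all genes 0.02) and the median absolute difference 0.22 (all genes 0.57).

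Actn1 was lower in TCZ by a log2 difference of -0.46 ± 0.07 (adjusted p = 6.47e-06), a ratio of 0.725. Vcl had -0.34 ± 0.07 (adjusted p = 0.000362), a ratio of 0.793. Myl9 was higher by 0.38 ± 0.08 (adjusted p = 0.000241), a ratio of 1.298. These 3 calls held in every alternative that was run except the requirement of a log2 change of at least 1.

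The other 3 calls were lost in some fits with a treated library left out, and their SEs were larger there. Actb was higher by 0.26 ± 0.07 (adjusted p = 0.00425), Actg2 by 0.23 ± 0.07 (0.00895) and Tpm1 by 0.21 ± 0.07 (0.0129). None of them passed without TC library 1 (adjusted p = 0.205, 0.146 and 0.185), without TC library 2 (0.0517, 0.119 and 0.188) or without TCZ library 1 (0.2, 0.121 and 0.273), which left Myl9 as the 1 gene higher. The differences in these fits were 0.19 to 0.30 for Actb, 0.18 to 0.22 for Actg2 and 0.15 to 0.21 for Tpm1, with SEs of 0.10 to 0.13. Acta2 (0.05 ± 0.07, adjusted p = 0.578), Actg1 (-0.07 ± 0.13, 0.657), Tagln (0.02 ± 0.08, 0.834) and Cnn1 (0.03 ± 0.07, 0.785) did not pass. With both libraries 2 left out, Acta2 had 0.12 and Actg1 0.18, whereas without TCZ library 1 alone Actg1 had -0.39. None of these fits had replicate libraries of TCZ.

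The counts of Acta1, Acta2, Actb, Actc1, Actg1 and Actg2 were also summed into 1 row, an alternative chosen after seeing the data; the pseudogenes, with which Actg1 shares most of its repeated words, are not in this sum. The summed actins had a log2 fold change of 0.13 ± 0.08 in TC (adjusted p = 0.154), 0.24 ± 0.08 in TCZ (adjusted p = 0.0103) and 0.11 ± 0.08 in TCZ against TC (adjusted p = 0.226). The summed actins thus passed as higher in TCZ; in TC, and between the treated groups, they did not pass.

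The other genes of this system were read as lists, against shares over all genes of 31.5% higher and 29.1% lower in TC, 31.5% and 28.6% in TCZ, and 28.2% and 27.9% in TCZ against TC. Of regulators the list held 11 MRTF and SRF genes. In TC 4 were higher and 3 lower (median log2 fold change -0.01), in TCZ 2 were higher and 5 lower (median -0.09), and in TCZ against TC 1 was higher and 6 lower (median -0.30). The 7 of 11 called in TC, and again in TCZ, lie near the 60.7% and 60.1% of all genes. Srf itself was at 91.9 and 85.2 CPM in control, 84.5 and 91.1 with TC and 56.5 and 52.1 under TCZ. Srf fell by 0.70 on the log2 scale in TCZ (SE 0.08, adjusted p = 6.20e-08) and was -0.69 ± 0.08 in TCZ against TC (1.15e-07). Elk3, an ETS cofactor of SRF, fell by 0.85 in TCZ (SE 0.07, adjusted p = 1.02e-09). In TCZ 8 of the 10 contractile genes were higher and Srf mRNA was lower, and a link between them was not tested.

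Myocd, the coactivator that drives smooth muscle genes, rose in TC. It was low, at 2.52 and 3.29 CPM in control, and stood at 14.3 in both TC libraries and 2.64 and 3.89 in TCZ. Its log2 fold change in TC was 2.32 ± 0.17 (adjusted p = 9.94e-11), and TCZ against TC was -2.18 ± 0.17 (6.27e-10).

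All 8 immediate early SRF targets of the list rose in TC, all 8 in TCZ, and all 8 were higher in TCZ than in TC, with median log2 values of 3.18, 5.41 and 2.05. Arc, an activity-regulated gene, went from 2.52 and 2.49 CPM in control to 115.5 and 120 in TC and 2132 and 1862.5 in TCZ. Egr1, a zinc finger factor, was at 115.5 and 96.7 CPM in control, 1572 and 1634 with TC and 5678 and 5351 under TCZ, while Egr3 was at 11.1 and 10.98, 81.4 and 86.1, and 563 and 536. On the log2 scale Arc, Egr1 and Egr3 rose by 5.55 ± 0.11, 3.91 ± 0.09 and 2.92 ± 0.08 in TC, beside a highest value of 1.01 among the 10 contractile genes. With both libraries 2 left out the medians were 3.1, 5.41 and 2.1.

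The 18 focal adhesion and crosslinking genes other than Actn1 and Vcl had 10 higher and 4 lower in TC (median log2 fold change 0.55; all genes 31.5% and 29.1%), 9 higher and 4 lower in TCZ (median 0.17; all genes 31.5% and 28.6%), and 1 higher and 10 lower in TCZ against TC (median -0.32; all genes 28.2% and 27.9%). Pxn (paxillin, an adhesion scaffold) rose by 1.82 ± 0.08 in TC (adjusted p = 1.27e-14) and by 1.54 ± 0.08 in TCZ (2.15e-13). Fhl2, a LIM domain protein, was at 134 and 125 CPM in control, 295 and 304 with TC and 152 and 134 under TCZ. It rose by 1.21 ± 0.08 in TC (adjusted p = 6.69e-12). Tns1 (tensin 1, which links integrins to actin) went the other way, from 810.2 and 754 CPM in control to 412 and 420.3 in TC and 199.9 and 198 in TCZ.

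Among 18 other contractile genes, 8 were higher and 4 lower in TC (median 0.13), 8 higher and 2 lower in TCZ (median 0.13), and 6 higher and 7 lower in TCZ against TC (median -0.05). Here 12 of 18 were called in TC and 10 of 18 in TCZ, near the 60.7% and 60.1% of all genes. Smtn (smoothelin, a smooth muscle actin-binding protein) rose by 1.33 ± 0.08 in TCZ (adjusted p = 5.67e-12). Lmod1 (leiomodin 1, a filament nucleator of smooth muscle) fell by 1.81 in TCZ (SE 0.08, adjusted p = 9.44e-15), from 163 and 144 CPM in control to 43.4 and 44.5. Mylk, the kinase that phosphorylates Myl9, was at 51.5 and 48.4 CPM in control, 23.1 and 24.9 with TC and 54.0 and 53.1 under TCZ. It fell by 1.06 in TC (SE 0.08, adjusted p = 7.89e-11) and was 1.16 ± 0.08 in TCZ against TC (4.03e-11); Synpo2, a bundling protein of low level, rose by 1.54 ± 0.11 in TC (4.27e-11).

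For the 18 genes of monomer supply and filament turnover the counts were 6 higher and 7 lower in TC (median -0.03), 5 and 1 in TCZ (median 0.11), and 6 and 4 in TCZ against TC (median 0.10). In TCZ these are 6 of 18 called, below the 60.1% of all genes. Actr3, a subunit of the Arp2/3 branching complex, rose by 0.74 ± 0.07 in TC (adjusted p = 5.01e-09) and by 0.39 ± 0.07 in TCZ (4.75e-05). Wdr1, a cofactor of cofilin, fell by 0.43 in TCZ (SE 0.07, adjusted p = 1.57e-05). Cfl2 (a cofilin, which severs filaments) rose by 0.49 ± 0.07 in TC (4.25e-06), and Gsn (gelsolin, a severing and capping protein) was 0.43 ± 0.08 in TCZ against TC (4.80e-05).

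Directions of lists with a median near 0 depended on the scaling. On library totals alone, the TCZ counts became 1 higher and 7 lower for filament turnover (median -0.09), 3 and 8 for other contractile genes (median -0.06), and 7 and 4 for focal adhesion genes (median -0.03). In TC they became 4 higher and 11 lower for filament turnover (median -0.18) and 7 and 8 for other contractile genes (median -0.01). The regulators had 3 higher and 6 lower in TC and 0 and 6 in TCZ on that scale, and the fibroblast markers 0 and 6 in TCZ (median -0.09). The focal adhesion list in TC kept a median of 0.40, with 10 higher and 6 lower. List values also moved with both libraries 2 left out. The focal adhesion median in TCZ against TC was then -0.22, and the regulator median in TCZ was -0.21. For filament turnover in TC the median was -0.09, for fibroblast markers in TCZ 0.08. The striated markers in TC went from a median of -0.07 to 0.88, and the endothelial markers in TC from -0.57 to -0.32. Tnni1 and Myh3, among the few striated markers tested, had only 5 and 1 counts in control library 1 and 12 and 8 in control library 2.

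**Figure D5:**
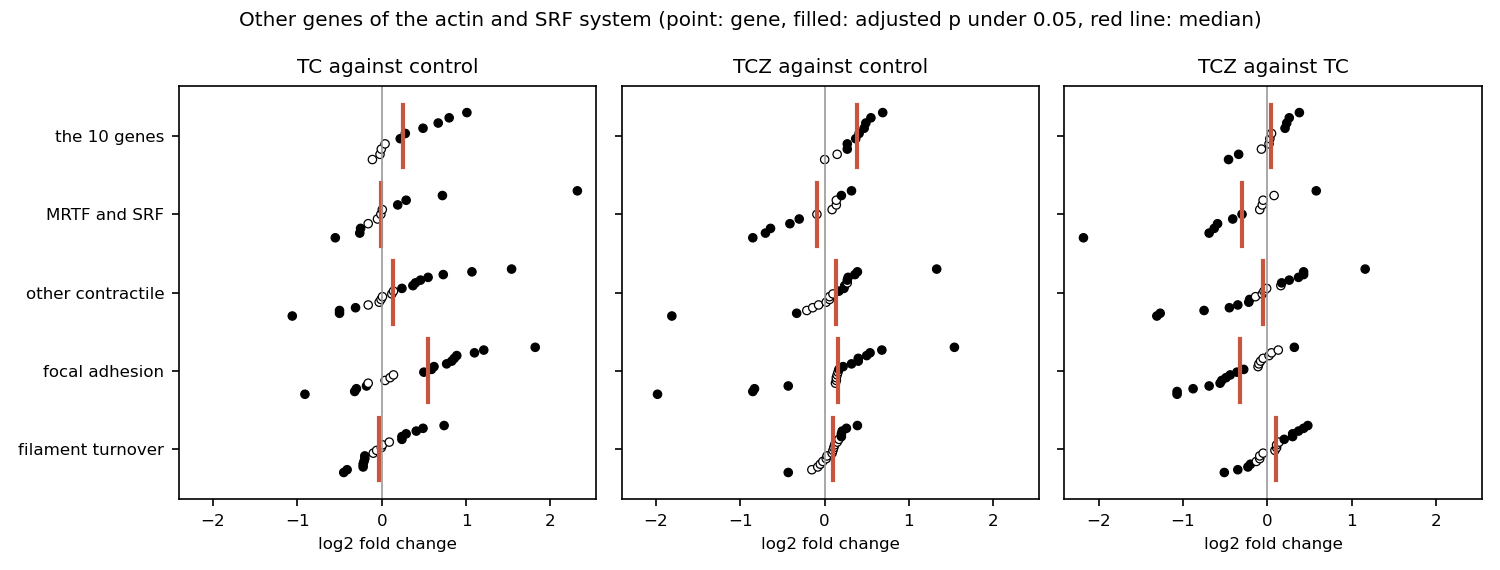
Log2 fold change of each gene in the 10 contractile genes and in the 4 lists of other actin and SRF genes, for the 3 comparisons (point: gene; filled: adjusted p under 0.05; red line: median). Focal adhesion genes have a median of 0.55 in TC, and the SRF regulators have a median of -0.30 in TCZ against TC, with Myocd lowest at -2.18.

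Markers of the muscle and pericyte lineage went in both directions. Of 9 pericyte and smooth muscle lineage markers, 1 was higher and 6 lower in TC (median -0.69), and 1 higher and 5 lower in TCZ (median -0.73). In TCZ against TC 4 were higher and 3 lower (median 0.43). Pdgfrb, the PDGF receptor of pericytes and fibroblasts, fell by 1.75 in TC (SE 0.07, adjusted p = 4.68e-15), Mcam, an adhesion molecule, fell by 1.34 (SE 0.07, 7.29e-13), and Cspg4, a proteoglycan, fell by 1.04 in TCZ (SE 0.08, 7.54e-11). Of the 12 striated markers 5 were tested, with 1 higher and 1 lower in TC and 0 higher and 1 lower in TCZ. Acta1, skeletal muscle actin, fell by 0.58 in TC (SE 0.07, adjusted p = 3.47e-07) and had -0.15 in TCZ (0.0823), while Tnnt2, a troponin, was 0.89 ± 0.14 in TC (1.28e-05) and -0.79 ± 0.16 in TCZ (0.000238). Of 9 fibroblast markers 2 were higher and 5 lower in TC (median -0.33) and 1 higher and 1 lower in TCZ (median 0.11). Col1a1, a collagen of connective tissue, fell by 0.74 in TC (SE 0.07, adjusted p = 1.05e-08), and Pdgfra, a PDGF receptor, had -0.74 ± 0.08 in TC (5.55e-08) and -2.67 ± 0.09 in TCZ (1.20e-16). Col3a1, another collagen, rose by 0.28 ± 0.07 in TCZ (adjusted p = 0.00232).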

How the data were processed

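The authors' deposited table held raw counts per gene and RPKM values for 6 libraries. Alignment to mm10 and counting used HISAT2 2.1.0 and HTSeq, among the tools listed per the submitters' processing notes; the strand setting is not given in the sources used here. The deposited RPKM values equal the count divided by gene length and library total, within 5e-07. They served for levels between genes. Counts were tested with edgeR 4.0.16 in R 4.3.3 (filterByExpr with a minimum count of 10, TMM, quasi-likelihood test, Benjamini-Hochberg over all 18563 genes kept), with all 6 libraries in 1 fit and group as the only factor. Alternatives used DESeq2 1.42.0, limma 3.58.1 (voom), other scalings, filters and sets of libraries. The procedure was tested on simulated data. The 10 genes and the lists were chosen with earlier results of these data known. All 10 genes are named, and from each list genes with the 2 smallest adjusted p-values in a comparison, 1 of which is not reported here; endothelial, epithelial and leukocyte lists are given by level and by the counts in the closing section, and Srf is given in every group. Promoters are from RefSeq and transcripts from GENCODE. Protein sequences were not used here.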

Additional observations from a re-analysis of the deposited data

How the results depend on the processing

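Of 498 values of the 10 genes under alternatives, 425 kept direction and side of the threshold, 18 came to pass, 25 no longer passed and 30 changed sign. Requiring a log2 change of 1 left 1 gene higher in TC (Actn1), 0 in TCZ, and 0 higher and 0 lower in TCZ against TC; leaving out 1 library gave 4 to 6 genes higher in TC, 6 to 9 in TCZ, 1 to 4 in TCZ against TC, and 0 to 1 lower in TC. Genes lower in TC numbered 4 on library totals alone, and 1 (Actb) with the 2 groups alone or a batch term for control 2 and TCZ 2. In TCZ 1 was lower on totals alone, and without the low-count filter 1 was higher in TCZ against TC. The batch term and the fit without both libraries were chosen after seeing the data. As shares of actin reads, control, TC and TCZ had 40%, 42.4% and 40.7% Acta2, 41.7%, 35.2% and 39.1% Actb, and 2.72%, 2.54% and 2.77% Actg2, with 19.9% Actg1 in TC.

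Sign changes in TC: Actg2 -0.10 (totals alone), -0.01 (both left out) and -0.02 to 0.10 (1 library left out); Cnn1 -0.08 to 0.03; Myl9 0.009 (DESeq2 and RLE), 0.01 (no filter), 0.02 (50 counts in 2 libraries) and -0.10 to 0.08. In TCZ: Actb -0.05 (totals alone); Cnn1 -0.20 (totals alone), -0.02 (no filter) and -0.07 to 0.06. In TCZ against TC: Acta2 -0.005 (totals alone) and -0.03 to 0.12; Actg1 0.16 (batch term), 0.18 (both left out) and -0.39 to 0.18; Tagln -0.03 (totals alone), -0.02 (no filter) and -0.08 to 0.12; Cnn1 -0.03 (totals alone), -0.01 (no filter) and -0.04 to 0.08. The cause was not tested.

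Actg1 did not pass with DESeq2 (adjusted p = 0.132 in TC and 0.194 in TCZ) or, in TCZ, on totals alone (0.106). Without the low-count filter Acta2 in TC (0.0559) and Actb, Actg2 and Tpm1 in TCZ against TC (0.0905, 0.186 and 0.219) did not pass. Actb passed in TCZ with DESeq2, voom, RLE, 50 counts in 2 libraries and the batch term. Same-numbered libraries deviated with correlations of 0.0115, 0.124 and -0.0215. These show no pairing by number, but with 2 libraries a group they cannot exclude it. With the replicate block 11240, 11166 and 10435 genes passed (11264, 11164 and 10414 without it). In that fit 9 of the 10 were higher in TCZ, with Actb added (edgeR, adjusted p = 0.0252). With 1 library left out, Tpm1 in TC ranged from 0.22 to 0.33 and Actb in TCZ against TC from 0.19 to 0.33. The lost calls of these 2 genes came with larger SEs and no change of direction. Acta2 in TC was 0.15 ± 0.06 without control library 2 (0.22 ± 0.07 in the main fit). Actg1 in TCZ was 0.10 ± 0.11 without TCZ library 1 (0.41 ± 0.13 in the main fit). There the estimate was lower and the SE no larger.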

Other observations

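Other gene lists were described by counts and medians only. Over all genes 31.5% were higher and 29.1% lower in TC, 31.5% and 28.6% in TCZ, and 28.2% and 27.9% in TCZ against TC. Of 6 epithelial markers 5 were higher in TC (median log2 fold change 2.75), 1 was higher and 1 lower in TCZ (median 0.58), and 4 were lower in TCZ against TC (median -2.52). Most of these genes had very few counts in the control libraries: Epcam 1 and 1, Cdh1 3 and 1, Krt8 6 and 4, and Cldn4 2 and 2. Krt18 and Krt19, with more counts, had 1.98 and 2.11 in TC. Epcam, the gene higher in TCZ, had 35 and 11 counts there. Of 5 endothelial markers 1 was higher and 1 lower in TC (median -0.57), and 3 were higher in TCZ (median 1.15). Of 6 macrophage markers 1 was higher and 1 lower in TC, and 2 higher and 1 lower in TCZ.

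The genes whose pattern lay nearest to Acta2 over the 6 libraries, by root mean square difference of centred log2 CPM among 11033 genes, were Degs1, a sphingolipid desaturase (0.014), Mtx2, a mitochondrial import protein (0.017), and S100a11, a calcium-binding protein (0.022). For Actb they were Spag5, a spindle protein (0.011), Prdx6, a peroxiredoxin (0.018), and Pphln1 (0.025). Degs1 was at 291 and 269 CPM in control, 326 and 327 with TC and 354 and 326 under TCZ, and Spag5 at 35.1 and 33.0, 30.8 and 32.8, and 39.6 and 37.0. With many candidates and 6 libraries, close patterns are a description.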
